A study of Mus musculus with 6 samples.

Results

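Potassium channel genes were described in RNA from the microdissected arcuate nucleus (ARC) of adult female mice. They were the gene symbols of the deposited count files that begin with Kcn, without *Kcnq1ot1*, which is a non-coding transcript of the *Kcnq1* locus. This rule found 96 of 24015 symbols. It held 40 voltage-gated, 15 inward rectifier, 14 two-pore, 8 calcium-activated and 17 auxiliary genes, and 2 further symbols, *Kcnd3os* and *Kcnmb4os1*, were antisense genes without a class. The sodium-activated genes *Kcnt1* and *Kcnt2* and the sperm channel *Kcnu1* were kept with the calcium-activated class, to which they are related in sequence.

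The control group held 3 Esr1fl/fl females, which carried the floxed alleles of the estrogen receptor gene *Esr1* without Cre. The mutant group held 3 Esr1fl/fl;Nkx2-1-Cre females (Esr1Nkx2-1Cre), in which Cre expressed from *Nkx2-1* removes estrogen receptor alpha (ERα). The deletion is not limited to the ARC, because Cre is active across the medial basal hypothalamus, and Cre itself was present in the mutants and absent from the controls. The labels give CD-1, 129P2 and C57BL/6 as the mixed background of all 6 females, while the study's methods name CD-1 and 129P2 alone for this line. Levels are given as CPM, the counts of a gene scaled to a common library size. Control *Esr1* levels were 64.8, 58.3 and 48.0 CPM, those of the mutants 11.7, 9.55 and 7.02 CPM, and so followed the labels.

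Potassium channels let potassium leave the cell and so pull the membrane away from the threshold for firing. Voltage-gated channels repolarize action potentials and set their spacing. Inward rectifiers hold the resting potential, and in the ARC the G protein-gated and ATP-sensitive types couple transmitters, peptides, leptin, insulin and glucose to the firing of POMC, AgRP and kisspeptin neurons. Two-pore channels carry the background leak, calcium-activated channels produce the hyperpolarization after spikes, and auxiliary subunits change the traffic and gating of the pore-forming ones.

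Libraries held between 11792440 and 17877137 counts on genes, and the 96 genes together took 0.310% to 0.390% of them. At these depths 3 counts stand for 0.177 to 0.245 CPM, a floor that covers counting error only. Neuronal, astrocytic and ARC marker genes were present in all 6 libraries, with *Pomc* between 146 and 264 CPM and *Agrp* between 26.0 and 39.8 CPM. Control replicate 2 stood apart. The summed level of 8 pituitary and pars tuberalis markers was 64.4 CPM in it and 769 to 1175 CPM in the other 5 libraries, and its astrocyte sum was the highest at 7181 CPM. Of 12 oligodendrocyte markers, all 12 were higher in every mutant than in any control, with sums of 820, 1279 and 669 CPM in controls and 1788, 1711 and 1634 CPM in mutants. Of 10 microglial markers 6 were, with sums of 263 to 274 CPM in controls and 334 to 351 CPM in mutants. Neuronal marker sums overlapped, at 5073, 6528 and 5957 CPM in controls and 5204, 6915 and 6666 CPM in mutants. So did the sums of the endothelial and mural (181 to 287 against 254 to 264 CPM), tanycyte and ependymal (396 to 644 against 554 to 722 CPM) and ventromedial nucleus markers (213 to 357 against 209 to 487 CPM). The ventromedial sums were lowest in replicate 1 of both genotypes. They were 213, 357 and 295 CPM in controls and 209, 416 and 487 CPM in mutants. The sums of the 12 ARC markers did not overlap, at 1158, 1170 and 1098 CPM in controls and 1777, 1233 and 1326 CPM in mutants. Without overlap, 4 markers were higher in mutants (*Cartpt*, *Kiss1*, *Tac2* and *Pdyn*) and 2 lower (*Nr5a2* and *Slc6a3*). The study reports *Kiss1*, *Tac2*, *Pdyn* and *Slc6a3* as changed in these mutants, so this sum is not a measure of ARC tissue alone. *Agrp*, *Pomc*, *Npy*, *Ghrh*, *Cited1* and *Tbx3* overlapped. The part of these marker differences in the results on potassium channel genes was not tested. In bulk tissue, fewer cells of a type and less RNA per cell cannot be told apart.

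A gene was counted as measured at 0.5 CPM or more in at least 3 samples, which 84 of the 96 reached: 37 voltage-gated, 14 inward rectifier, 10 two-pore, 8 calcium-activated and 14 auxiliary genes and *Kcnd3os*. The gene just above this limit was *Kcnk4*, at 0.472, 0.531 and 0.426 CPM in controls and 0.163, 1.13 and 0.596 CPM in mutants. The gene just below it was *Kcna7*, at 0, 0 and 0.497 CPM and 0.327, 0 and 0.265 CPM. The 12 genes not measured were *Kcna7*, *Kcna10*, *Kcns1*, *Kcnj1*, *Kcnk7*, *Kcnk15*, *Kcnk16*, *Kcnk18*, *Kcne1*, *Kcne3*, *Kcnmb3* and *Kcnmb4os1*, none above 0.572 CPM in any sample. Of the measured genes 10 averaged 100 CPM or more, 36 were between 10 and 100 CPM, 31 between 1 and 10 CPM and 7 under 1 CPM. The highest sample exceeded the lowest by a median of 1.80 times over the 84 genes. This ratio was under 1.5 for 23 genes and 4 or more for 8.

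Levels of different genes can be compared only per length. The CPM was therefore divided by the length of the gene's exons in the GENCODE annotation, which 81 of the 84 measured genes matched once. The highest level per kb was that of *Kcnj10*, the astrocytic and oligodendroglial inward rectifier that takes up extracellular potassium, at 111 CPM per kb over the 6 samples. *Kcna2*, a low-threshold channel of axons, followed at 57.6 CPM per kb. *Kcnip4*, a calcium-binding subunit of the A-type channels, was at 39.1, the small-conductance channel gene *Kcnn3* at 38.5, the acid-sensitive leak channel gene *Kcnk9* at 34.7 and the *Kcnj10* partner *Kcnj16* at 34.2 CPM per kb. The second gene of the two-pore class was the mechanically gated *Kcnk2* at 26.7, that of the calcium-activated class the large-conductance *Kcnma1* at 23.2, and that of the auxiliary class *Kcnip3* at 18.0 CPM per kb. Neighbouring means between 34.2 and 39.1 CPM per kb differed by less than the SD of *Kcnip4* or *Kcnn3* over 3 females, so that their order was within the spread. The order also rests on the annotated exon lengths. That of *Kcnk9* was 1209 bases and that of *Kcnk2* 3618 bases, while their mean levels were 41.9 and 96.6 CPM. Whether the annotated exons of *Kcnk9* are complete was not tested.

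**Figure D1:**
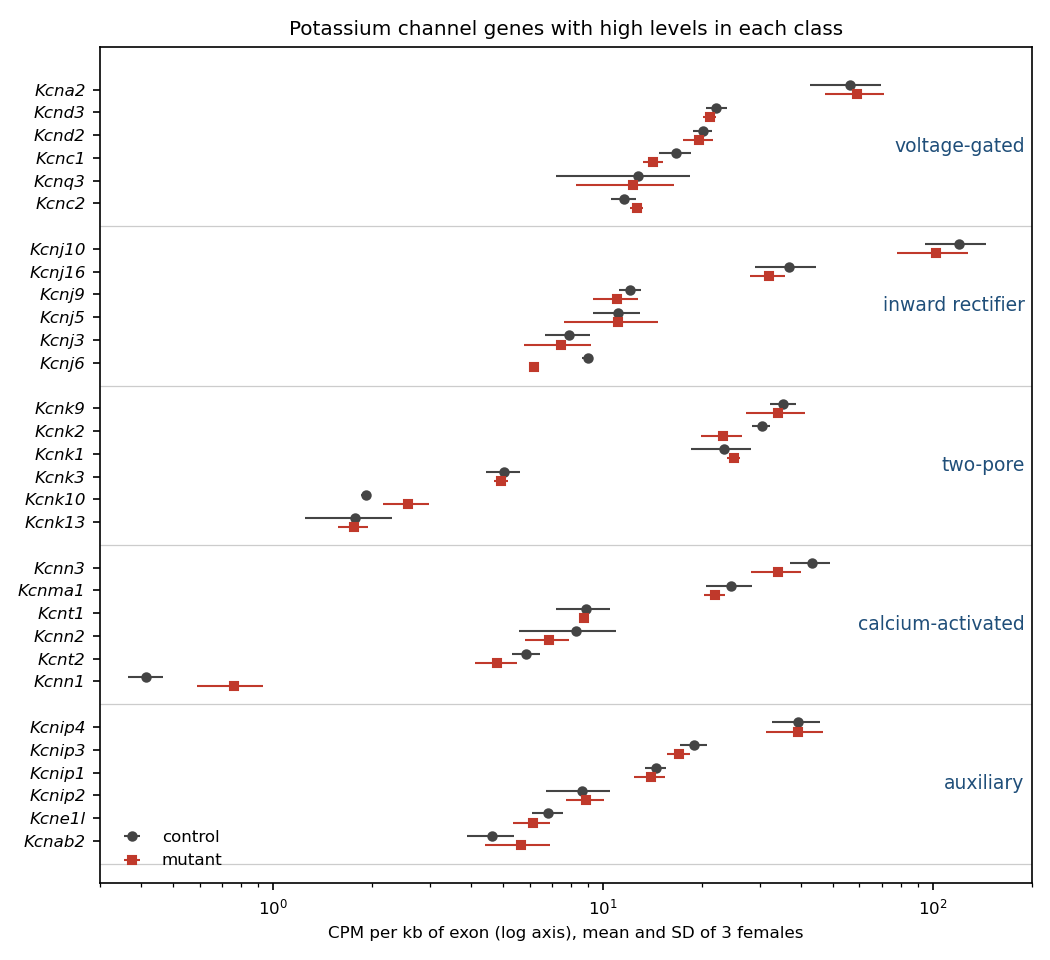
Level per kb of exon (CPM per kb, log axis) of 6 measured genes with high levels in each class, as the mean (circles, control; squares, mutant) and SD of 3 females. *Kcnj10* stood highest at 111 CPM per kb over the 6 samples, and the SD bars of *Kcnj6*, *Kcnk2*, *Kcnk10* and *Kcnn1* did not overlap between the genotypes.

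The comparison of mutant with control ARC asked which of these genes differed in level when ERα was removed. EdgeR's quasi-likelihood test was run over all 15236 genes that passed its filter on low counts, 81 of them potassium channel genes. The measured genes that did not pass were *Kcnn4*, *Kcnk12* and *Kcnk4*. No potassium channel gene reached an adjusted p-value under 0.05, which 18 genes in all, 0.118%, did. DESeq2 called 1 of the 80 to which it gave an adjusted p-value, *Kcnj6*, a share of 1.25% beside 1.27% of all genes it tested. Before adjustment, 15 of the 81 had a p-value under 0.05 in edgeR's test, a share of 18.5% beside 8.85% of all genes. Of these, 7 were higher in the mutants, 8.64% beside 4.84% of all genes, and 8 were lower, 9.88% beside 4.01%.

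The 3 mutant values lay wholly on one side of the 3 control values for 14 of the 81, or 17.3%, beside 15.8% of all genes. They lay above for 6 genes, 7.41% beside 7.19%, and below for 8 genes, 9.88% beside 8.66%. Both descriptions held for 11 genes, but they rest on the same values, and the share of all genes meeting both was not computed. The median log2 fold change of the 81 was -0.03 against 0.0036 for all genes, and values ran from -0.71 to 1.15. It was above 0 for 33 and below 0 for 48 of the 81, beside 7763 and 7473 of all 15236 genes. The count with an unadjusted p-value under 0.05 rested in part on control replicate 2. Without that library it was 9 of 82 genes, 11.0% beside 7.73% of all genes, and 7 of the 15 kept such a p-value, namely *Kcna5*, *Kcnh8*, *Kcnj11*, *Kcnj6*, *Kcnk2*, *Kcnn1* and *Kcnv1*. All 15 kept their sign in each of the 6 fits that left out one sample. These genes were picked by p-value from the same samples, so this could hardly come out otherwise and is no support. The study's figure legend gives 3 females per genotype, and the sources say no more about how the 3 samples of a genotype relate. The p-values therefore measure the spread between these samples. An exact two-sided permutation test of 3 against 3 cannot give a p-value under 0.1.

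**Figure D2:**
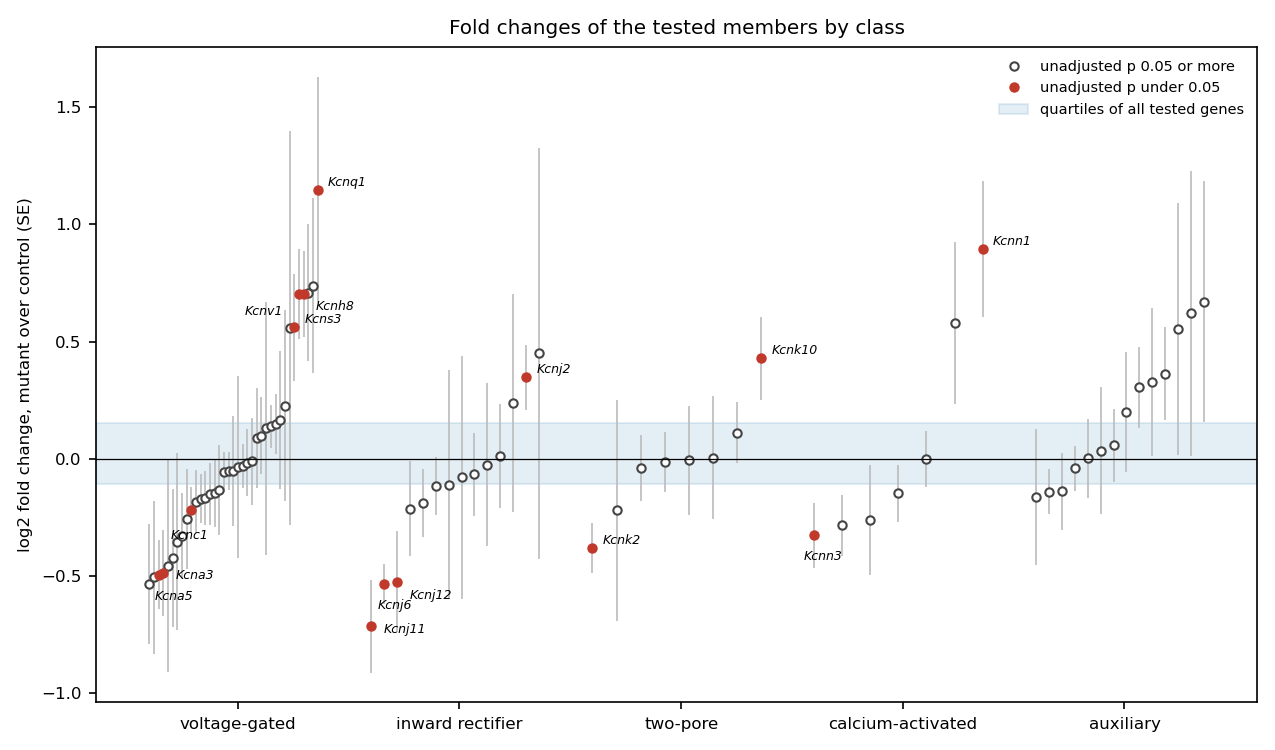
Log2 fold change of mutant over control (bars, standard error) of the tested potassium channel genes by class, ordered by size within a class, with the band between the quartiles of all 15236 tested genes. Filled points are the 15 genes with an unadjusted p-value under 0.05 in edgeR's test, of which none passed adjustment. The auxiliary class, with 14 tested genes, held none, where 8.85% of all genes had such a p-value.

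Inward rectifiers were led by *Kcnj6*, a subunit of the G protein-gated channels through which GABA-B, opioid and other Gi-coupled receptors silence neurons. It was at 50.6, 54.8 and 52.3 CPM in controls and at 36.1, 35.9 and 36.2 CPM in mutants. All mutants were below all controls. They also lay closer together than the controls did, but 3 samples cannot establish a smaller spread. The log2 fold change was -0.53 (standard error, SE, 0.085), with an adjusted p-value of 0.0568 in edgeR's test and 0.000699 in DESeq2. Across all alternative fits its adjusted p-value ran from 0.000699 to 0.222, and its log2 fold change stayed between -0.56 and -0.51 when any one sample was left out. The gene spans 94970873 to 95219303 of chromosome 16 on the minus strand of NCBIM37, and no other annotated gene shares its exon bases.

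The G protein-gated channels are tetramers that mix *Kcnj6* with *Kcnj3*, *Kcnj5* and *Kcnj9* subunits. The coding sequence around the selectivity filter, the part of the pore that passes potassium, is shown because these genes are close relatives whose reads can be hard to separate. It was read 5′ to 3′ on the coding strand from the NCBIM37 transcripts, with the filter codons in capitals, beside the same stretch of the ATP-sensitive channel gene *Kcnj11*. The lines hold *Kcnj6* at chr16:95054375-95054407 on the minus strand, *Kcnj9* at chr1:174256306-174256338 on the minus strand, *Kcnj3* at chr2:55290029-55290061 on the plus strand, *Kcnj5* at chr9:32130135-32130167 on the minus strand and *Kcnj11* at chr7:53354857-53354889 on the minus strand, each within a coding exon.
Kcnj6: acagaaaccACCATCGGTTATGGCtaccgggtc
Kcnj9: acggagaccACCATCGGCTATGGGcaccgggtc
Kcnj3: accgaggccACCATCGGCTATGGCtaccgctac
Kcnj5: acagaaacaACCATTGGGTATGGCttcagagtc
Kcnj11: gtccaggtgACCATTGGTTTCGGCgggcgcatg
Over these 33 bases *Kcnj6* had 28 bases equal to *Kcnj9*, 27 to *Kcnj5*, 26 to *Kcnj3* and 16 to *Kcnj11*. Even here the genes differed at several positions, and how reads that fit more than 1 gene were handled is not given in the sources used here.

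The other G protein-gated genes overlapped between the genotypes. *Kcnj3* was at 34.1, 46.5 and 43.1 CPM in controls and 29.2, 41.3 and 46.6 CPM in mutants. *Kcnj9* was at 38.5, 37.2 and 43.0 CPM and at 31.8, 42.6 and 34.3 CPM. *Kcnj5* was at 44.6, 59.3 and 46.5 CPM and at 37.0, 45.5 and 67.8 CPM. Their log2 fold changes were -0.07 (SE 0.18), -0.12 (0.12) and 0.013 (0.22), with adjusted p-values of 0.954, 0.849 and 0.995 in edgeR's test. *Kcnj3* shares exon bases with the antisense gene *Gm17595*. Of the summed level per kb of these 4 genes, *Kcnj6* made up 23.5%, 21.9% and 22.0% in controls and 20.8%, 16.5% and 15.2% in mutants, so the shares of the mutants lay below those of the controls. The shares of *Kcnj3*, *Kcnj5* and *Kcnj9* overlapped between the genotypes.

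The pore of the ATP-sensitive channel, which closes when glucose metabolism raises ATP, is encoded by *Kcnj11* in neurons and by *Kcnj8* mainly in mural cells. *Kcnj11* (chromosome 7, 53352533 to 53355607 on the minus strand of NCBIM37) was at 9.57, 8.09 and 6.45 CPM in controls and 4.49, 5.21 and 4.84 CPM in mutants. All mutants were below all controls. Its log2 fold change was -0.71 (SE 0.20), the most negative of the 81 genes, but the adjusted p-value was 0.275 in edgeR's test and between 0.194 and 0.606 in the alternatives. *Kcnj8* was at 4.45, 2.01 and 3.05 CPM in controls and 2.86, 2.26 and 4.11 CPM in mutants, which overlapped. The sulfonylurea receptor genes that complete these channels overlapped as well, *Abcc8* with a log2 fold change of -0.15 and *Abcc9* with one of 0.07.

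**Figure D3:**
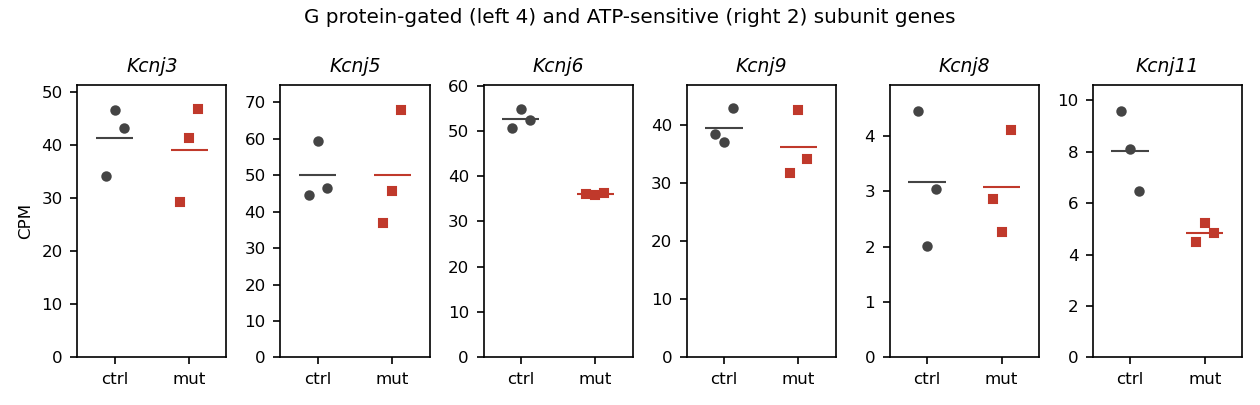
Level (CPM, axis from 0) of the G protein-gated subunit genes *Kcnj3*, *Kcnj5*, *Kcnj6* and *Kcnj9* and of the ATP-sensitive pore genes *Kcnj8* and *Kcnj11* in each female (circles, control; squares, mutant; lines, means of 3). The 3 mutants sat at 35.9 to 36.2 CPM for *Kcnj6*, under all controls, and *Kcnj11* was also separated, while the other 4 genes overlapped.

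The strong rectifiers differed in direction. *Kcnj12* was at 5.12, 6.55 and 7.16 CPM in controls and 3.59, 4.65 and 4.70 CPM in mutants, without overlap. Its log2 fold change was -0.52 (SE 0.22, edgeR adjusted p-value 0.513). *Kcnj2* was at 29.8, 24.0 and 33.2 CPM in controls and 39.6, 32.5 and 37.8 CPM in mutants, so that the lowest mutant fell between the controls. Its log2 fold change was 0.35 (SE 0.14, edgeR adjusted p-value 0.497), the only positive one among the 4 inward rectifiers with an unadjusted p-value under 0.05. The strong rectifiers of low level, *Kcnj4* and *Kcnj14*, named here after their values were seen, overlapped, with log2 fold changes of -0.11 (SE 0.49) and 0.24 (SE 0.47). Of the 14 tested genes of the class 10 had a log2 fold change below 0, beside 7473 of all 15236 genes. The class median was -0.09, within the quartiles of all genes (-0.11 and 0.15).

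The genotypes overlapped for *Kcnj10*, *Kcnj16*, *Kcnj13*, *Kcnk13* and *Kcne4*, which are expressed mainly outside neurons. *Kcnj10* was at 524, 794 and 627 CPM in controls and 439, 524 and 703 CPM in mutants, and *Kcnj16* at 128, 179 and 125 CPM and 116, 117 and 143 CPM. Both were highest in control replicate 2, the library with the highest astrocyte sum. Their log2 fold changes were -0.21 (SE 0.20) and -0.19 (0.14), with adjusted p-values of 0.829 and 0.771 in edgeR's test. *Kcnj13*, a channel of choroid plexus and other epithelia, varied most within the mutants, at 4.66, 10.9 and 2.52 CPM against 7.95, 4.43 and 6.95 CPM in controls, and it shares exon bases with *Gigyf2* on the opposite strand. *Kcnk13*, the resting channel of microglia, was at 4.72, 7.38 and 4.47 CPM in controls and 5.88, 4.84 and 5.70 CPM in mutants. *Kcne4*, a subunit found in vascular cells, was at 0.741, 0.590 and 0.284 CPM and at 0.245, 1.32 and 0.861 CPM.

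Among the 8 tested two-pore genes, *Kcnk2* was the one with the clearest difference. The channel is opened by stretch, arachidonic acid and volatile anaesthetics and closed by Gs- and Gq-coupled receptors. It was at 112, 115 and 102 CPM in controls and 71.7, 83.4 and 95.5 CPM in mutants. All mutants were below all controls, although the gap between the highest mutant and the lowest control was smaller than the SD of the controls. The log2 fold change was -0.38 (SE 0.11, edgeR adjusted p-value 0.284, and 0.125 to 0.704 in the alternatives). A two-pore subunit carries a pair of filters, so that 2 subunits make a channel. The coding stretches of both filters of *Kcnk2* are shown with the filter codons in capitals, because this pair sets the class apart from the inward rectifiers. The first spans an exon junction on chromosome 1, and the second lies at chr1:191080451-191080483 on the minus strand of NCBIM37.
Kcnk2 first pore: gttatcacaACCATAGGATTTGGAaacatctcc
Kcnk2 second pore: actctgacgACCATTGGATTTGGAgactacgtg
Its close relative *Kcnk10* was at 6.47, 6.26 and 6.03 CPM in controls and 9.88, 7.41 and 7.82 CPM in mutants. It thus lay on the other side, with every mutant above every control and a log2 fold change of 0.43 (SE 0.18, edgeR adjusted p-value 0.518). *Kcnk9* overlapped, at 43.5, 45.9 and 38.4 CPM in controls and 50.8, 36.9 and 35.9 CPM in mutants.

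Voltage-gated genes formed the largest class, with 37 measured, all of them tested. Of these 14 had a log2 fold change above 0 and 23 below, with a median of -0.05, beside 7763 above and 7473 below of all 15236 genes. An unadjusted p-value under 0.05 was seen for 4 that were higher and 3 that were lower in mutants. Of all genes 4.84% were higher and 4.01% lower at such a p-value. *Kcna2*, which had the highest level per kb of the class, overlapped between the genotypes. It was at 145, 239 and 197 CPM in controls and 156, 226 and 231 CPM in mutants. *Kcnc1*, the fast delayed rectifier of rapidly firing neurons, was at 135, 168 and 154 CPM in controls and 122, 140 and 128 CPM in mutants, with a log2 fold change of -0.22 (SE 0.096, edgeR adjusted p-value 0.561), and its groups overlapped.

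Several genes of the A current, which delays the first spike, and of the M current, which muscarinic and peptide receptors close, were followed whatever their values. *Kcnd3* was at 200, 230 and 206 CPM in controls and 198, 197 and 213 CPM in mutants, and *Kcnd2* at 100, 112 and 99.2 CPM and 89.6, 103 and 110 CPM. Their log2 fold changes were -0.05 (SE 0.081) and -0.03 (0.094), among the smaller errors of the 81 genes. *Kcnd3* overlaps *1700095B22Rik* on the opposite strand. *Kcnq3*, a subunit of the M channel, ranged widely, at 22.8, 50.2 and 27.7 CPM in controls and 20.7, 34.9 and 41.7 CPM in mutants, with overlap. *Kcnq5* was at 30.0, 35.8 and 31.7 CPM in controls and 29.7, 29.7 and 26.6 CPM in mutants, with every mutant below every control by a narrow margin (log2 fold change -0.17, SE 0.11, edgeR adjusted p-value 0.692). It shares exon bases with *Gm16705* on the opposite strand.

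The 3 voltage-gated genes lower at an unadjusted p-value under 0.05 were *Kcnc1* and the Shaker-type genes *Kcna5* and *Kcna3*. *Kcna5* was at 22.8, 30.4 and 23.0 CPM in controls and 19.3, 15.5 and 18.9 CPM in mutants, without overlap and with a log2 fold change of -0.49 (SE 0.15, edgeR adjusted p-value 0.321). *Kcna3*, a channel of neurons and activated microglia and T cells, was at 15.0, 22.3 and 15.3 CPM in controls and 12.1, 10.8 and 14.3 CPM in mutants, also without overlap and with a log2 fold change of -0.49 (SE 0.18, edgeR adjusted p-value 0.462). Without control replicate 2, in which both were highest, *Kcna5* kept an unadjusted p-value under 0.05 and *Kcna3* did not. The part of microglia in the level of *Kcna3* was not tested.

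The higher voltage-gated genes included *Kcnv1* and *Kcns3*, both silent subunits, which form no channel alone and change the gating of other voltage-gated subunits. The other tested silent subunits, named here after their values were seen, overlapped between the genotypes and differed in sign. Log2 fold changes were -0.33 (*Kcnf1*), -0.35 (*Kcng1*), -0.50 (*Kcng2*), -0.42 (*Kcng3*), 0.13 (*Kcng4*), 0.17 (*Kcns2*) and 0.56 (*Kcnv2*). *Kcnv1* (chromosome 15, 44937830 to 44946480 on the minus strand of NCBIM37) was at 9.57, 13.5 and 13.8 CPM in controls and 15.3, 22.1 and 22.3 CPM in mutants. All mutants were above all controls, and the log2 fold change was 0.70 (SE 0.19, edgeR adjusted p-value 0.264, and 0.0384 to 0.718 in the alternatives). *Kcns3* was at 5.66, 4.37 and 4.61 CPM in controls and 5.31, 7.10 and 8.94 CPM in mutants, with overlap and a log2 fold change of 0.56 (SE 0.23, edgeR adjusted p-value 0.507). *Kcnh8*, a neuronal channel of the ether-à-go-go family, was at 6.60, 5.55 and 7.02 CPM in controls and 9.15, 9.61 and 12.2 CPM in mutants. It did not overlap, and its log2 fold change was 0.70 (SE 0.18, edgeR adjusted p-value 0.239). The filter stretches of *Kcnv1* (chr15:44940826-44940858, minus strand) and *Kcna5* (chr6:126483754-126483786, minus strand) are shown because they place a silent and a conducting subunit side by side, again with the filter codons of NCBIM37 in capitals.
Kcnv1: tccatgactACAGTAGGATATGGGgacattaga
Kcna5: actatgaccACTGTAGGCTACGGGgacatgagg

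*Kcnq1*, a channel of epithelia and heart, had the largest log2 fold change of the 81 genes at 1.15 (SE 0.48), at a level near the limit of what was measured. The gene was at 1.21, 0.295 and 1.13 CPM in controls and 2.04, 2.20 and 1.52 CPM in mutants. The groups did not overlap, the adjusted p-value was 0.525 in edgeR's test, and without control replicate 2 the log2 fold change was 0.71. In the NCBIM37 annotation no other gene shares exon bases with *Kcnq1*. Whether reads of the antisense *Kcnq1ot1* entered its count was not tested, and whether counting used strand is not given in the sources used here. *Kcnq1ot1* itself was at 163 to 299 CPM in the 6 samples, with overlap.

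**Figure D4:**
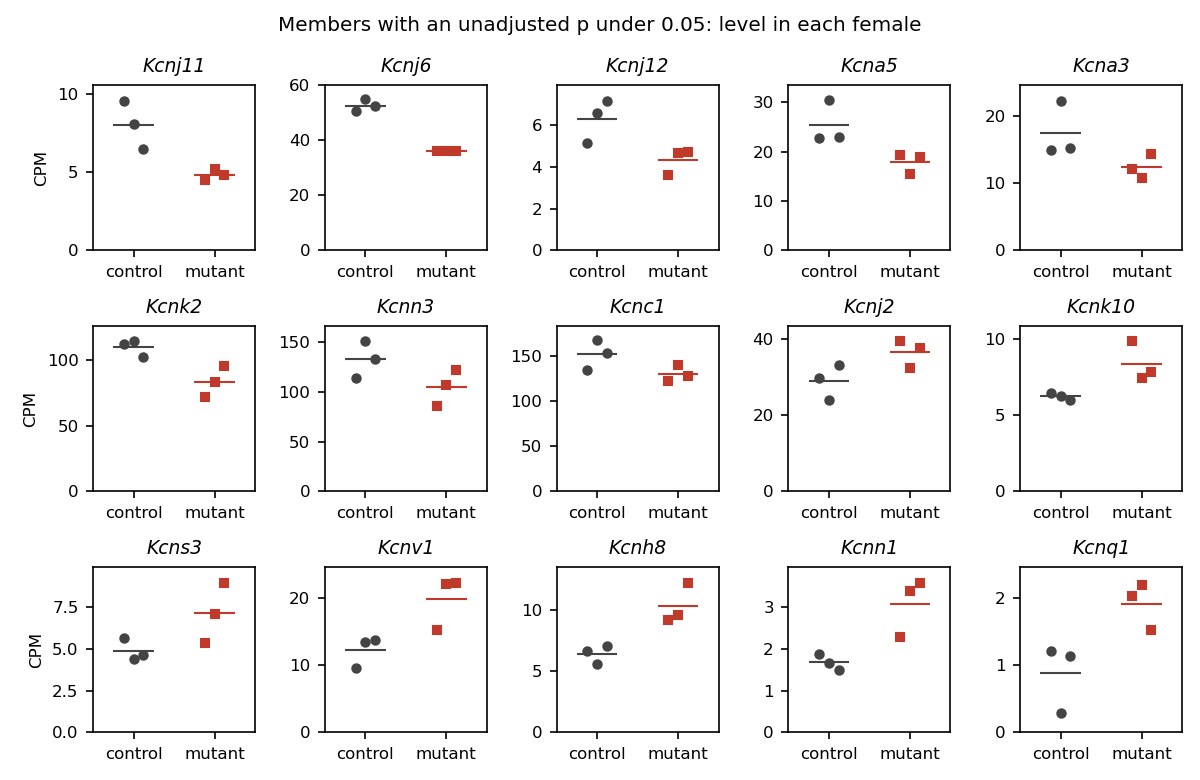
Level (CPM, each axis from 0) in each female of the 15 potassium channel genes with an unadjusted p-value under 0.05 in edgeR's test, ordered by fold change (circles, control; squares, mutant; lines, means of 3). The genotypes did not overlap for 11 of them and overlapped for *Kcnn3*, *Kcnc1*, *Kcnj2* and *Kcns3*. Overlap and p-value rest on the same values.

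Of the 7 tested calcium-activated genes, 5 had a log2 fold change below 0, with a median of -0.15, beside 7473 below 0 of all 15236 genes. *Kcnn3*, the small-conductance channel with the highest level per kb of the class, was at 114, 151 and 133 CPM in controls and 86.0, 106 and 122 CPM in mutants. The groups overlapped through the highest mutant, and the log2 fold change was -0.33 (SE 0.14, edgeR adjusted p-value 0.552). *Kcnn1*, of the same family, lay on the other side at low levels, at 1.89, 1.65 and 1.49 CPM in controls and 2.29, 3.39 and 3.58 CPM in mutants. Its groups did not overlap, with a log2 fold change of 0.90 (SE 0.29, edgeR adjusted p-value 0.376). The third member *Kcnn2* was at 21.0, 41.5 and 31.9 CPM and at 23.7, 23.8 and 30.6 CPM, and *Kcnma1*, which repolarizes spikes and gates secretion, at 98.2, 115 and 136 CPM and 96.0, 106 and 111 CPM. Both overlapped.

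Auxiliary subunits showed no difference that passed either description. None of the 14 tested genes had an unadjusted p-value under 0.05, beside 8.85% of all genes. In none did the genotypes separate, beside 15.8% of all genes. Whether this small class differs from all genes was not tested. Their median log2 fold change was 0.13, with 10 above 0 and 4 below, beside 7763 above and 7473 below of all 15236 genes. *Kcnip4* was at 86.7, 104 and 121 CPM in controls and 80.4, 110 and 119 CPM in mutants, and its log2 fold change was 0.0027 (SE 0.17). *Kcnip3*, a calcium sensor that also acts as a transcriptional repressor, was at 66.9, 73.5 and 60.9 CPM and at 55.5, 64.8 and 60.8 CPM, with a log2 fold change of -0.14 (SE 0.096, edgeR adjusted p-value 0.730).

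A list of 31 further genes was described in the same fit. Most encode products that bind or steer potassium channels, while *Tmem175*, *Tmem38a* and *Tmem38b* encode potassium-permeable channels inside the cell. Of the 29 tested genes of the list none had an adjusted p-value under 0.05 in edgeR's test. An unadjusted p-value under 0.05 was found for 3, all lower in the mutants and without overlap. These were 10.3% of the 29, where 4.01% of all genes were lower at such a p-value, 8.85% had one in either direction and 8.66% lay wholly below the controls. The median log2 fold change of the list was -0.07. *Lrrc55*, an auxiliary subunit of the *Kcnma1* channel, was at 49.1, 55.3 and 50.9 CPM in controls and 42.6, 31.0 and 40.0 CPM in mutants, with a log2 fold change of -0.44 (edgeR adjusted p-value 0.289). *Vapb*, a protein of contacts between the endoplasmic reticulum and the plasma membrane, had a log2 fold change of -0.26 (edgeR adjusted p-value 0.372). *Cntnap2*, which gathers Shaker-type channels beside the node of Ranvier, had one of -0.24 (edgeR adjusted p-value 0.478). The A-channel subunits *Dpp6* and *Dpp10* overlapped, with log2 fold changes of -0.10 and 0.13.

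A few potassium channel genes of low level were lowest in control replicate 2, and these were picked after their values were seen. The summed level of all 96 genes went the other way. It was highest in that library, at 4113 CPM against 2989 to 3727 CPM in the other 5. *Kcnj15* was at 0.118 CPM in that library and at 2.29 to 4.54 CPM in the other 5, and *Kcnv2* at 0.354 CPM against 1.26 to 5.28 CPM. *Kcne2* was at 0.295 CPM against 0.922 to 1.70 CPM, and *Kcnq1* at 0.295 CPM against 1.13 to 2.20 CPM. The pituitary hormone subunit gene *Cga* was at 3.31 CPM in the same library and at 370 to 585 CPM in the others. The pituitary markers *Prl* and *Gh* were at or near 0 in several libraries of both genotypes. The part of pituitary or pars tuberalis tissue in the levels of these 4 genes was not tested.

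**Figure D5:**
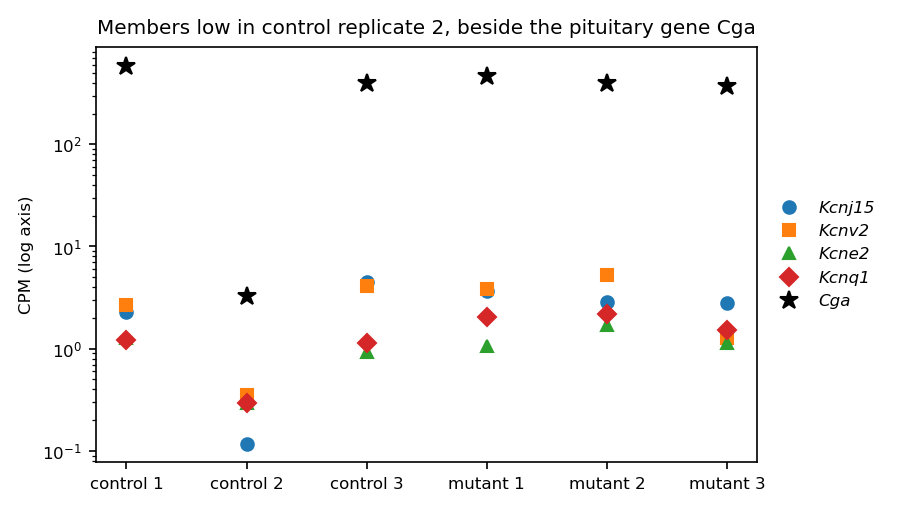
Level (CPM, log axis) of *Kcnj15*, *Kcnv2*, *Kcne2* and *Kcnq1* and of the pituitary gene *Cga* in each of the 6 libraries. All 5 genes were lowest in control replicate 2, where *Cga* was at 3.31 CPM.

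ERα binds the palindrome GGTCANNNTGACC or its half-site GGTCA, so the promoters of the potassium channel genes were searched for both on either strand. RefSeq windows of 300 bases (GRCm38.p6, 250 before the start to 50 after it) were given for 70 of the 96 genes, with 95 windows. The full palindrome, which holds the half-site, was in 0 of these 95 windows and in 0.07% of all 32851 windows. The half-site was in 27.4% of the windows of potassium channel genes and in 40.5% of all windows. Of the 15 genes with an unadjusted p-value under 0.05, 12 had a window, and those of *Kcnh8*, *Kcnk10*, *Kcnk2* and *Kcnn1* held a half-site in at least 1 window. The half-site was in 26.3% of the 19 windows of these genes and in 29.0% of the 62 windows of the tested genes with a higher p-value, where 17 of 45 genes held it. The windows of *Kcnh8* (chr17:52602459-52602758, plus strand) and of one start of *Kcnj6* (chr16:94997647-94997946, minus strand) are shown as a gene with and a gene without the half-site, which is in capitals. A match in such a window is a description of letters, and ERα binding was not measured here.
Kcnh8: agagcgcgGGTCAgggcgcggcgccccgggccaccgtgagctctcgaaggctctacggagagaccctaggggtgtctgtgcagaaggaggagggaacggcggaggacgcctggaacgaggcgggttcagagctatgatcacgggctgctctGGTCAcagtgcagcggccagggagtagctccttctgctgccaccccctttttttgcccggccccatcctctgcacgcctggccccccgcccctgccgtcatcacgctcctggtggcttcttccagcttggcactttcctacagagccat
Kcnj6: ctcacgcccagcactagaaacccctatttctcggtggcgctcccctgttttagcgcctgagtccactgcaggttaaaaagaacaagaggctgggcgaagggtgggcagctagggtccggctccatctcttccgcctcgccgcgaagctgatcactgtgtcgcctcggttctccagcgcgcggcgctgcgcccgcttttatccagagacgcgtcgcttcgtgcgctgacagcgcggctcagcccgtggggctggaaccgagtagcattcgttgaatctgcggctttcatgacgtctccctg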

How the data were processed

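ARC RNA of 3 control and 3 mutant females was sequenced after amplification. Reads were mapped by the authors with TopHat2 2.1.0, and the deposited HTSeq 0.6 counts hold 1 whole number per gene symbol, without normalization. Labels and methods name different builds, and whether counting used strand is not given in the sources used here. Positions and exon lengths were taken from the GENCODE annotation of NCBIM37 by symbol, which may differ from the annotation used for counting.

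Groups and replicate numbers came from the labels. CPM was scaled by edgeR's TMM factors. The main test was edgeR 4.0.16 (R 4.3.3), quasi-likelihood with robust dispersions, TMM and the default low-count filter, with Benjamini-Hochberg adjustment over 15236 genes and a threshold of 0.05. The study's methods name DESeq2 (1.14.1 in the submitters' processing notes), and DESeq2 1.42.0 and limma voom (limma 3.58.1) were alternatives, with RLE scaling, other low-count filters, a replicate block and each sample left out. The scripts were tested on simulated data. Between 2 samples, chi-square per degree of freedom was 6.90 to 31.2, so no library was counted as a repeat.

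The genes named were those with an unadjusted p-value under 0.05, those called by DESeq2 or with the block, the 2 with the highest level per kb in each class, subunits known in ARC neurons or glia, and the pair at the measured limit. The genes and lists were chosen with earlier results of these data known. Amplified reads carry no molecular identifiers, so floors cover counting error only. Results on some genes the rule takes are not reported here, although the counts include them. Other experiments of the study were not used here.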

Additional observations from a re-analysis of the deposited data

How the results depend on the processing

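No potassium channel gene passed the adjusted threshold with edgeR, RLE scaling, limma voom, the 0.5 CPM or 10-count filter, or in any fit without 1 sample (0 genes). DESeq2 called 1 and a minimum of 1 count in any sample 1, both *Kcnj6* (adjusted p-value 0.000699 and 0.0112). The labels number samples 1 to 3 in both genotypes without stating pairs, so they were not taken as pairs. The deviations of same-numbered samples correlated with r of 0.281, 0.0471 and -0.0031 across 15236 genes. Whether replicate 1 of both genotypes shared a batch was not tested. With the replicate block 2 were called, *Kcnj6* (0.0315) and *Kcnv1* (0.0384). In that fit 20 rather than 15 had an unadjusted p-value under 0.05, a share of 24.7% beside 12% of all genes. Over all genes, 18 calls became 191 with DESeq2, 106 with the minimum of 1 count, 123 with the replicate block and 7 to 46 without 1 sample, 46 without control replicate 2, 9 without mutant replicate 2 and 7 without mutant replicate 3. The count of potassium channel genes with an unadjusted p-value under 0.05 was 9 to 17 without 1 sample, the lowest without control replicate 2. Its share was 11% beside 7.73% of all genes without control replicate 2, and 20.5% beside 9.82% without control replicate 1. With DESeq2 the count was 12, a share of 12.5% beside 5.33%. The number measured was 77 at 1 CPM and 84 with plain CPM, and the number without overlap 15 with plain CPM. The cause of these changes was not tested.

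Of the log2 fold changes of 36 named genes, 26, which include all genes picked by their unadjusted p-value, kept their sign throughout. Without 1 sample the others ran from -0.083 to 0.257 (*Kcna2*), -0.098 to 0.042 (*Kcnd2*), -0.116 to 0.150 (*Kcnip4*), -0.840 to 0.291 (*Kcnj13*), -0.214 to 0.100 (*Kcnj3*), -0.268 to 0.185 (*Kcnj5*), -0.298 to 0.296 (*Kcnj8*), -0.126 to 0.253 (*Kcnk13*), -0.221 to 0.051 (*Kcnk9*) and -0.256 to 0.371 (*Kcnq3*). *Kcnip4* was also at -0.00078 with RLE, -0.0041 with DESeq2, -0.0071 with the minimum of 1 count and -0.0027 with the replicate block, *Kcnj5* at -0.018 with limma voom and -0.022 with the block, *Kcnj8* at 0.023 with limma voom and *Kcnk13* at 0.019 with the block. Adjusted p-values of these 10 were 0.640 or more in all fits. Genes under about 1 CPM rest on few counts, and differences in them were not detectable at this depth unless large.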
